A study of Homo sapiens with 6 samples.

Results

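The miR-191/miR-425 cluster is a pair of microRNA hairpins, MIR191 and MIR425, that lie side by side in the DALRD3 locus on chromosome 3. Its members were chosen by name and are the 4 mature arms hsa-miR-191-5p, hsa-miR-191-3p, hsa-miR-425-5p and hsa-miR-425-3p, out of 28846 small RNAs counted, of which 2596 are microRNAs. The counts come from small-RNA sequencing of K562 cells, an erythroleukemia cell line, and the question of the study was which microRNAs respond to the transcription factor RUNX1. In the control group the cells carried the empty lentiviral vector SIEW, which expresses GFP only, and in the RUNX1 group the same vector with human RUNX1 and GFP. Each group had 3 samples from independent transductions, and RNA was harvested after 10 days in culture. Every sample is the same cell line, so the replicate error describes repeated transductions of 1 line and not different donors. RUNX1 itself is no small RNA and its level could not be checked in these counts.

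MicroRNAs are cut from a hairpin in the nucleus by Drosha and outside it by Dicer. Of the duplex that remains, the arm that is loaded onto an Argonaute protein guides it to target messages through its seed, bases 2 to 8, while the other arm is mostly degraded. miR-191 is an abundant microRNA in many cell types and has been used as a reference in q-RT-PCR. In red cell precursors it is known to decline during terminal maturation and to target RIOK3 and MXI1, and miR-425 is transcribed with it.

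The mature sequences below are from RefSeq on GRCh38.p14, which held an entry for 3 of the 4 members, and they are shown because the 2 arms of miR-191 gave different results. The seed is in capitals.
hsa-miR-191-5p: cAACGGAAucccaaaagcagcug
hsa-miR-191-3p: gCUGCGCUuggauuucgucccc
hsa-miR-425-3p: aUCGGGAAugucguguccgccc
The 3 seeds differed from each other. None of the 2370 mature microRNAs in the RefSeq table shared a seed with miR-191-5p, miR-191-3p or miR-425-3p, so no seed family widens these members. In the MIR191 hairpin below, the capitals mark the mature arms, with the 5p arm at bases 16 to 38 and the 3p arm at bases 58 to 79 of 92.
MIR191 hairpin: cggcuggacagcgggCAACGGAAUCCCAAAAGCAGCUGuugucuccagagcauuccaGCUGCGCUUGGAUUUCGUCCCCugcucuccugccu

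On GRCh38 MIR191 lies at chr3:49020618-49020709 and MIR425 at chr3:49020148-49020234, both on the minus strand, with 383 bases between them. MIR191 comes first in the direction of transcription. In GENCODE 29 both hairpins lie within an intron of 4 of the 15 DALRD3 transcripts, on the same strand. The other 11 DALRD3 transcripts start downstream of both hairpins and do not contain them. DALRD3 encodes a protein that takes part in the methylation of arginine tRNAs. MIR191 also lies opposite an intron of 1 of the 6 transcripts of NDUFAF3, a gene on the plus strand for an assembly factor of mitochondrial complex I, while MIR425 lies outside NDUFAF3.

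RefSeq gives 2 promoter windows for DALRD3, each from 250 bases before to 50 after a start site. The start of the first, at position 49021505, is 796 bases upstream of the MIR191 hairpin, and the second start, at position 49018580, is downstream of both hairpins. RUNX1 binds DNA through its runt domain, and the motif letters TGTGGT and TGCGGT were searched on both strands. Neither motif was found in either DALRD3 window, while 19.6% of 35116 promoter windows of the same length held at least 1 of them (TGTGGT in 13.1% and TGCGGT in 7.29%). The first window spans positions 49021456 to 49021755. In GENCODE the 4 DALRD3 transcripts that contain the hairpins start at 49021251, 49021058, 49022291 and 49022293, outside both windows. No window was drawn around these starts, so the result does not describe the promoters of these transcripts. The absence of these letters in the windows also says nothing of RUNX1 binding elsewhere in the locus.

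The libraries held from 1618248 to 15245007 counts. At this depth 3 counts, the limit that a count of 0 allows, were at most 0.000185% of a library. Levels are CPM, the counts brought to a common library size with edgeR's TMM factors, which assume that most small RNAs do not change. Differences are log2 fold changes of RUNX1 over control with their standard error (SE), and each adjusted p is a Benjamini-Hochberg value over the 947 small RNAs tested with edgeR unless another tool is named. RUNX1 replicate 3 stood apart from the other RUNX1 samples. In 226 of 335 altered microRNAs (67.5%) it was the RUNX1 sample nearest to the control samples. The log2 fold changes of the members, the miR-191 arm ratio and the ratios between hairpins and clusters are given with and without it. The erythroid side of these cells was visible in the control samples, where miR-451a stood at 2903 ± 232 CPM and miR-144-5p at 985 ± 57.2 CPM (SD, n = 3 each).

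The arms spanned a wide range of levels. miR-191-5p ranked second among all microRNAs by mean CPM in both conditions, behind miR-21-5p in control and behind miR-10a-5p in RUNX1 samples. By raw counts its rank was 2 in 5 libraries and 3 in control replicate 3. miR-425-5p ranked from 34 to 38, miR-425-3p from 124 to 135 and miR-191-3p from 189 to 227 over the 6 libraries, so the order of the 4 arms was the same in every library. The arms are of nearly the same length, 22 or 23 bases where a sequence was at hand, so counts were compared without a length correction. All 4 members passed the filter on low counts, and each had at least 84 counts in every library.

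miR-191-5p had 109287, 405984 and 405177 counts in control replicates 1, 2 and 3, and 1375070, 707901 and 514071 counts in RUNX1 replicates 1, 2 and 3. After TMM scaling these were levels of 52265, 50383 and 53356 CPM in control and 119285, 113255 and 75032 CPM in RUNX1 samples. All RUNX1 samples lay above all control samples, and RUNX1 replicate 3 was the lowest of its group. The mean level went from 52001 ± 1504 CPM without to 102524 ± 23999 CPM with RUNX1 (SD, n = 3 each). Upon RUNX1 over-expression miR-191-5p was thus up-regulated 1.97-fold (log2 0.98, SE 0.17, edgeR adjusted p = 0.00107). With total counts only the log2 value was 0.26 and was not called (edgeR adjusted p = 0.105). Without RUNX1 replicate 3 it was 1.25 with TMM scaling.

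miR-191-3p, the rare arm of the same hairpin, had 84, 388 and 344 counts in control against 494, 262 and 226 counts in RUNX1 replicates 1, 2 and 3. Its levels were 40.2, 48.2 and 45.3 CPM in control and 42.9, 41.9 and 33.0 CPM in RUNX1 samples. The groups overlapped, with RUNX1 replicate 3 the lowest of all samples. The log2 difference of this arm, -0.19, did not pass the test (SE 0.15, edgeR adjusted p = 0.318), and the 95% interval from -0.54 to 0.16 holds both a fall and a slight rise. Without RUNX1 replicate 3 the value was -0.0034, and with total counts only it was -0.90 and the arm was called down-regulated (edgeR adjusted p = 0.000605).

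miR-425-5p had 3790, 15690 and 13910 counts in control against 38709, 17307 and 16860 counts in RUNX1 replicates 1, 2 and 3, which gave 1813, 1947 and 1832 CPM in control and 3358, 2769 and 2461 CPM in RUNX1 samples. The RUNX1 samples were all higher, and with TMM scaling this arm was up-regulated by 0.62 on the log2 scale (SE 0.14, edgeR adjusted p = 0.00424), whereas with total counts only the value was -0.091. Without RUNX1 replicate 3 it was 0.81. Its partner miR-425-3p had 225, 877 and 804 counts in control against 2033, 1047 and 879 counts in RUNX1 samples, or 108, 109 and 106 CPM against 176, 168 and 128 CPM. Again every RUNX1 sample was above every control sample, and the arm was up-regulated by 0.55 with TMM scaling (SE 0.15, edgeR adjusted p = 0.0113), against -0.16 with total counts only. This lies close to the threshold of 0.5, and the value was 0.49, under it, without RUNX1 replicate 1 and 0.77 without RUNX1 replicate 3.

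**Figure D1:**
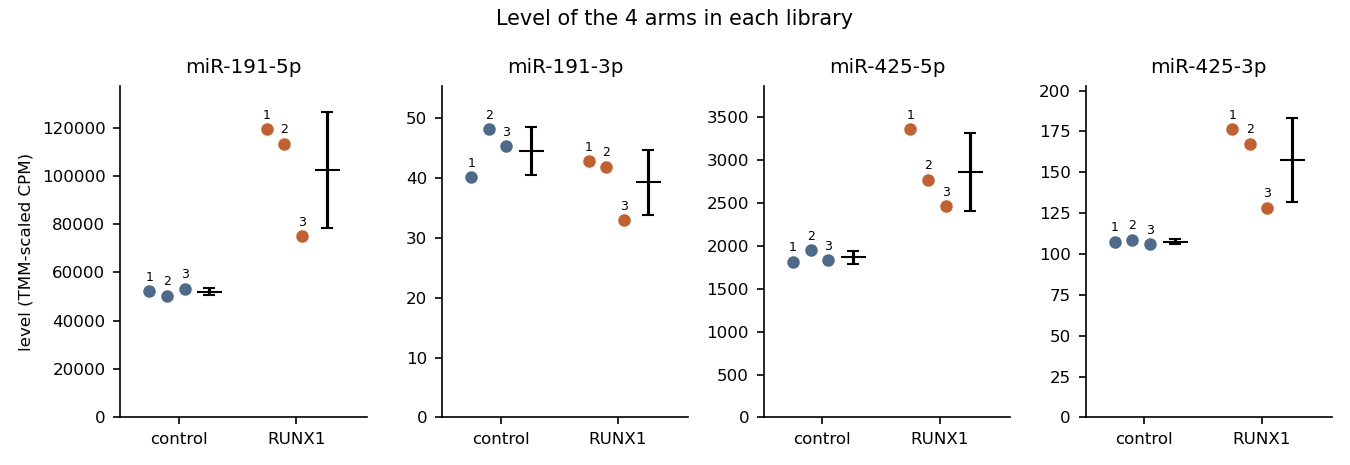
Level of each arm in TMM-scaled CPM on the y axis (from 0) for the 3 control and 3 RUNX1 samples, numbered by replicate, with the mean and SD as a bar. With this scaling, but not with total counts only, miR-191-5p, miR-425-5p and miR-425-3p were higher in every RUNX1 sample than in every control sample. RUNX1 replicate 3 was the lowest of its group for all 4 arms, and the groups overlapped for miR-191-3p.

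The study called a small RNA altered when it changed by 0.5 or more on the log2 scale with a P-value below 0.05. By this rule 3 of the 4 members were up-regulated and none was down-regulated with TMM scaling, while with total counts only 1 member was called, miR-191-3p, and it was down-regulated. With TMM the same rule called 33.4% of the 598 tested microRNAs up-regulated and 22.6% down-regulated (56% together), and 28% of all 947 small RNAs up-regulated and 29.6% down-regulated (57.6% together). With total counts only the rule called 91 of the tested microRNAs up-regulated and 292 down-regulated. Being called was therefore common in these data. Likewise, the groups did not overlap for 3 members, and this held for 61.7% of the tested microRNAs, 36.3% with RUNX1 above control and 25.4% with RUNX1 below. The 4 arms come from 2 neighbouring hairpins and are not independent of each other. The median log2 fold change was 0.11 over the tested microRNAs and -0.064 over all small RNAs tested.

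The counts of both arms of a hairpin come from the same library, so their ratio needs no scaling between libraries. For miR-191, each count of the 3p arm stood against 1301, 1046 and 1178 counts of the 5p arm in control, and against 2784, 2702 and 2275 in RUNX1 replicates 1, 2 and 3. As a log2 ratio this was 10.2 ± 0.154 without and 11.3 ± 0.158 with RUNX1 (SD, n = 3 each). The groups did not overlap, which was so for 54.9% of the 144 hairpins with both arms tested. The difference of 1.14 (SE 0.15) passed limma's moderated test over these hairpins with an adjusted p = 0.000297. It was 1.23 without RUNX1 replicate 3. In the MIR191 sequence above, the first capital stretch thus gained on the second upon RUNX1 over-expression.

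No such difference passed the test for the arms of miR-425. The count of the 5p arm per count of the 3p arm was 16.8, 17.9 and 17.3 in control against 19.0, 16.5 and 19.2 in RUNX1 samples, and the groups overlapped. The log2 ratio differed by 0.071 (SE 0.14, 95% interval -0.24 to 0.39, limma adjusted p = 0.714). The interval of the miR-191 hairpin, 0.81 to 1.47, lies wholly above that of miR-425, although the difference between these hairpins was not itself tested. Changes of this kind were frequent, since 43.1% of the 144 hairpins had an altered arm ratio, 22.2% toward the 5p arm and 20.8% toward the 3p arm. The change of miR-191 was the 14th largest toward the 5p arm.

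**Figure D2:**
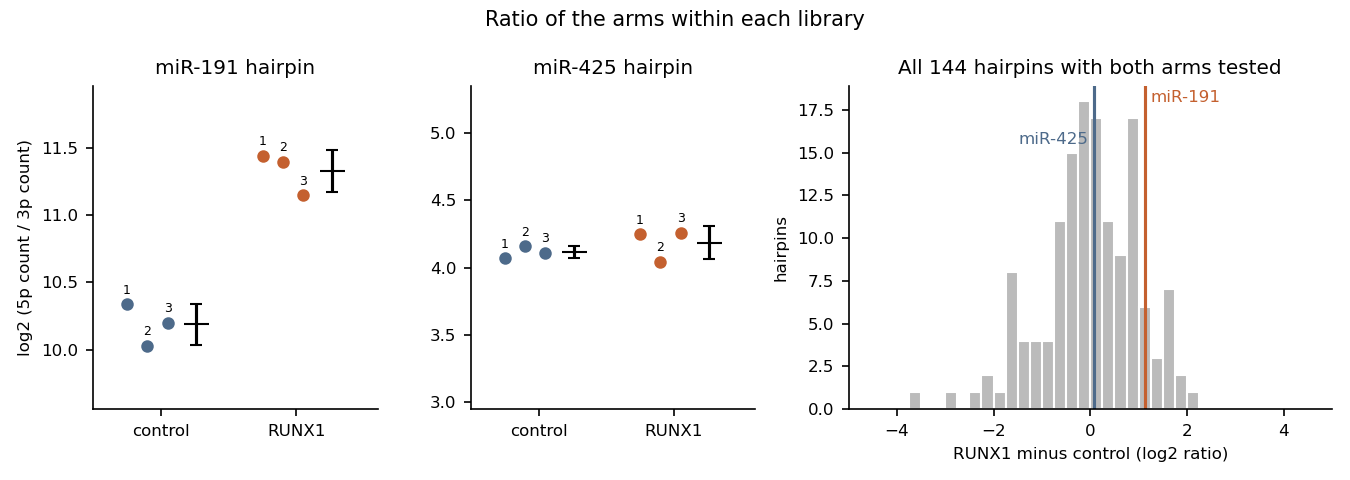
Log2 ratio of 5p to 3p counts within each library for the miR-191 and miR-425 hairpins (points are samples numbered by replicate, bars the mean and SD), and a histogram of the RUNX1 minus control difference of this ratio over 144 hairpins. The miR-191 ratio was higher in all RUNX1 samples, by 1.14, whereas miR-425 lay near 0.

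Neighbouring hairpins can also be compared within a library. The log2 ratio of miR-191-5p to miR-425-5p counts was 4.85, 4.69 and 4.86 in control against 5.15, 5.35 and 4.93 in RUNX1 samples. The RUNX1 samples were higher by 0.34, with no overlap (2-sided exact permutation test, p = 0.1 and 0.167 when adjusted over 5 such tests). With 3 samples a side no smaller p can be reached. Without RUNX1 replicate 3 the difference was 0.45. Between the 3p arms the order was the opposite. The log2 ratio of miR-191-3p to miR-425-3p went from -1.42, -1.18 and -1.22 in control to -2.04, -2.00 and -1.96 in RUNX1 samples, a difference of -0.73, or -0.75 without RUNX1 replicate 3 (exact permutation test, p = 0.1, adjusted p = 0.167). Within the cluster, miR-191-5p held a share of 96.3% ± 0.237 without and 97.0% ± 0.409 with RUNX1, and miR-425-5p a share of 3.45% ± 0.222 and 2.76% ± 0.394 (SD, n = 3 each).

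Whether the members rose at all depends on the scaling between libraries. The libraries differed in makeup. miR-10a-5p, an abundant microRNA of the HOX clusters, took 6.33% ± 0.624 of all counts without and 27.5% ± 2.56 with RUNX1 (SD, n = 3 each). As a plain share of all counts, miR-191-5p made up 6.75%, 6.60% and 6.54% in control against 9.02%, 8.32% and 6.49% in RUNX1 samples. RUNX1 replicate 3 was then below the control samples (exact permutation test, p = 0.4). The difference of 1.31 percentage points was 2.04 without RUNX1 replicate 3 and 0.776 without RUNX1 replicate 1. miR-425-5p made up 0.234%, 0.255% and 0.225% of the counts in control against 0.254%, 0.203% and 0.213% in RUNX1 samples, and the groups overlapped (exact permutation test, p = 0.4). Leaving miR-10a-5p out of the total raises the share of every other small RNA, and more so in RUNX1 samples. A separation seen that way is partly built in and does not bear on whether these arms rose. With miR-10a-5p left out, all RUNX1 samples were above all control samples for both arms. The share of miR-191-5p was then 7.17%, 7.03% and 7.04% without and 12.6%, 11.8% and 8.60% with RUNX1. That of miR-425-5p was 0.249%, 0.272% and 0.242% without and 0.356%, 0.288% and 0.282% with RUNX1 (exact permutation test, p = 0.1 for each). As a share of microRNA counts only, the groups overlapped for both arms. The difference was then 0.63 percentage points for miR-191-5p (exact permutation test, p = 0.4) and -0.045 for miR-425-5p (exact permutation test, p = 0.2). With only miR-22-3p left out of the total, the differences were 1.38 and -0.015 (exact permutation test, p = 0.4 for each).

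When libraries were scaled to their total counts only, miR-191-5p changed by a log2 value of 0.26 that was not called, the values of miR-425-5p and miR-425-3p were -0.091 and -0.16, and miR-191-3p was called down-regulated with -0.90 (SE 0.14). This scaling moved the median of all small RNAs from -0.064 to -0.76. TMM computed on microRNAs alone left miR-191-5p up-regulated with 0.78 but put miR-425-5p at 0.42 and miR-425-3p at 0.36, under the fold-change threshold. With it 161 microRNAs were up-regulated and 175 down-regulated, with total counts only 91 and 292, and with TMM on all small RNAs 200 and 135. A scaling shifts all small RNAs of a library together, so the position of the members relative to the median of all small RNAs tested is nearly fixed by construction and does not bear on whether they rose. Over TMM, the 5 other scalings and DESeq2's own, the log2 value relative to that median ranged from 1.02 to 1.06 for miR-191-5p, from 0.67 to 0.70 for miR-425-5p, from 0.60 to 0.63 for miR-425-3p and from -0.14 to -0.11 for miR-191-3p.

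The miR-106b/93/25 cluster in an intron of MCM7, a replication licensing gene, was taken as a cluster of similar build. The log2 ratio of the summed miR-191/miR-425 counts to the sum of its 6 arms was 1.42, 1.40 and 1.37 in control against 2.75, 2.62 and 1.95 in RUNX1 samples. Of the miR-191/miR-425 counts, miR-191-5p made up 96.3% without and 97.0% with RUNX1, so this ratio mostly follows that arm. The miR-191/miR-425 sum was higher by 1.04 relative to the miR-106b/93/25 sum, or 1.29 without RUNX1 replicate 3 (exact permutation test, p = 0.1, adjusted p = 0.167). The most abundant arm of that cluster, miR-25-3p, had a log2 difference of -0.12 (SE 0.11), miR-93-5p of -0.0072 (SE 0.11), miR-93-3p of -0.18, miR-106b-5p of 0.33 and miR-106b-3p of -0.43, and none of these 5 arms was called with TMM scaling. Of the 6 arms, 1 was called down-regulated with it, 2 with TMM on microRNAs and 5 with total counts only. Of the 598 tested microRNAs, 135, 175 and 292 were down-regulated with these scalings, in the same order. The larger counts of arms thus came with a general shift. The sixth arm, miR-25-5p, had 399, 404 and 381 CPM in control and 66.5, 76.6 and 256 CPM in RUNX1 samples, of which replicate 3 was again nearest to control. It was down-regulated, with -1.57 on the log2 scale (SE 0.45, edgeR adjusted p = 0.0143). Its arm ratio fell by 1.73 (SE 0.41, limma adjusted p = 0.00787). That of miR-106b also passed the test, in the other direction, with 0.78 (SE 0.22, limma adjusted p = 0.0174). The arm ratio of miR-93 differed by 0.17 and did not pass (limma adjusted p = 0.448).

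The pattern over the 6 samples was compared with that of 143 other microRNAs with a mean of at least 100 CPM, as the root mean square distance of log2 CPM after centring each microRNA on its mean. Nearest to miR-191-5p were miR-15a-5p, at 0.067, and miR-454-3p, at 0.071, with a median distance of 0.50 over the 143. A predicted microRNA on chromosome 13 had the same 6 counts as miR-15a-5p and so the same distance, whereas no entry had the same counts as a member. miR-15a-5p had 464, 480 and 483 CPM in control and 1192, 1073 and 756 CPM in RUNX1 samples. miR-330-5p, miR-411-5p and miR-590-3p were nearest to miR-425-5p, at 0.11, 0.13 and 0.13. The distance between miR-191-5p and miR-425-5p was 0.22, larger than the 0.082 between the arms of miR-425, and that between the arms of miR-191 was 0.58.

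Around the cluster, 11 other small RNA entries of the count files belong to genes within 500 kb of MIR191. All were at or near 0. The most counted, miR-6824-3p, had 49 counts over all samples together and none passed the filter on low counts, so a change of the neighbourhood could not be examined at this depth.

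Other microRNAs with a role in erythroid or megakaryocytic differentiation were set beside the cluster. Of 24 listed, 21 were tested, and 14 were up-regulated, 5 down-regulated and 2 not called, with a median log2 value of 0.90 beside 0.11 over all tested microRNAs. With total counts only, 6 were up-regulated and 6 down-regulated, with a median of 0.18. Several were singled out by the study from these same samples, and miR-34a-5p (2, 2 and 8 counts in control) passed the filter only through the RUNX1 samples. The count is therefore not independent evidence of a direction. With TMM, 33.4% of all tested microRNAs were up-regulated and 22.6% down-regulated. The most counted of the list was miR-22-3p, which with TMM scaling rose by 0.69 on the log2 scale (SE 0.11). Of the others, miR-27a-3p rose by 0.90, miR-223-3p by 0.91 and miR-15a-5p by 1.08, also with TMM scaling. Total counts only shifted the median of all small RNAs tested by -0.70, about the size of the rise of miR-22-3p. Whether such microRNAs rose therefore depends on the scaling. The 5 down-regulated ones were miR-126-3p (-1.32), miR-451a (-0.84), miR-144-5p (-0.58), miR-486-5p (-0.80) and miR-96-5p (-0.97), of which the last was named after its value was seen. Of the 4 erythroid markers, only miR-144-3p was up-regulated (1.02) and 3 were down-regulated, but 1 was down-regulated without control replicate 1, without control replicate 3, without RUNX1 replicate 2 or with TMM on snoRNAs, and 0 with the adjusted P-value and a log2 threshold of 1, while miR-144-3p was not called with total counts only. Their summed level went from between 4429 and 5064 CPM in control to between 2333 and 3697 CPM in RUNX1 samples. Markers listed for other cell types also moved with the condition. Of 11 listed, 7 were tested and all 7 were up-regulated (5 with total counts only), beside 33.4% of all tested microRNAs with TMM. Among the 7, miR-1 and miR-205-5p (0, 9 and 8 counts in control) passed the filter on low counts only through the RUNX1 samples. A fall could not have been called for them, so the count of 7 does not bear on a direction. The summed level of the listed markers went from between 12661 and 14239 CPM in control to between 37606 and 53244 CPM in RUNX1 samples. Most of it was miR-142-5p, listed for leukocytes. K562 is itself a leukemia line of blood cells, and this arm stood at 11714 CPM in control already. The sum is therefore not a measure of other cell types. The muscle microRNA miR-1 had 0, 1 and 0 counts in control against 70, 29 and 42 counts with RUNX1, and miR-143-3p of smooth muscle and stroma had 42, 152 and 131 against 23516, 12816 and 12786 counts. The neuronal miR-124-3p and the muscle miR-206 had 0 counts in every sample. A link between these markers and the differences of the miR-191/miR-425 arms was not tested.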

How the data were processed

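Small RNA of 3 control and 3 RUNX1 samples was sequenced from TruSeq Small RNA libraries made with 1000 ng of total RNA. The authors demultiplexed the reads with CASAVA 1.8.2 and used the OASIS platform, and deposited whole-number counts of each annotated small RNA, not normalized. The submitters' processing notes name hg19, and coordinates here are from GENCODE 29 and RefSeq on GRCh38. The aligner and the treatment of reads with more than 1 match are not given in the sources used here, and 6 of 834 rows with at least 100 counts had counts identical to another row, none of them a member. Rows without a small RNA name held 0% of the counts. Library totals ranged from 1618248 to 15245007, and floors cover counting error only. Control and RUNX1 library names differ in a letter whose meaning is not stated, and whatever it marks cannot be told apart from the condition. The library names of RUNX1 replicates 1 and 2 carry the same number, which the titles do not, and their counts differed by more than sampling noise (chi-square per degree of freedom 67.4). Replicates differed by more than sampling noise (chi-square per degree of freedom of at least 11.2) and were counted separately.

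Counts were filtered with filterByExpr (minimum count 10, total 15), scaled by TMM and tested with edgeR 4.0.16 (glmQLFit, glmQLFTest) in R 4.3.3, with condition as the single term. Standard errors were derived from the F statistic. Arm ratios used log2 of counts plus 0.5 and limma 3.58.1 with an intensity trend. Single ratios and shares were compared by exact permutation tests. Alternatives were DESeq2 1.42.0, other scalings, filters and call rules, a pseudocount of 5, other denominators, the replicate number as a block, and each sample left out. The fits were tested on simulated data in which most small RNAs did not change, as TMM assumes. That simulation cannot tell which scaling is right for the real libraries. The named small RNAs are the members, microRNAs above miR-191-5p, those nearest in pattern, neighbours within 500 kb, seed partners, the miR-106b/93/25 arms and the 6 most counted of a list of erythroid and megakaryocytic microRNAs. Members and lists were chosen with earlier results of these data known.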

Additional observations from a re-analysis of the deposited data

How the results depend on the processing

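Of 175 values recomputed under alternatives, 159 kept their direction and their side of the threshold, or stayed within 1.5 times a count. Both arm ratios and the ratios between clusters did so in all of theirs. Single ratios and shares under permutation tests could not pass the threshold in any setting, so for them only the direction could change. Ratios within a library do not depend on the scaling and were not recomputed under other scalings. Scaling to library size only put miR-191-5p at 0.26, miR-425-5p at -0.091, miR-425-3p at -0.16 and miR-191-3p at -0.90, with 1 member called and 91 microRNAs higher and 292 lower. TMM on microRNAs put miR-425-5p at 0.42 and miR-425-3p at 0.36, with 1 member called and 161 microRNAs higher and 175 lower. With TMM on snoRNAs 232 microRNAs were higher and 111 lower. With at least 10 counts in every sample 133 microRNAs were higher, by construction among fewer tested. A rule on the adjusted P-value with a log2 threshold of 1 left 0 members (3 with the P-value and 0.5), 128 microRNAs higher and 85 lower. The share of miR-425-5p differed by -0.015 percentage points on all counts and by 0.054 without miR-10a-5p in the total. The cause of these shifts was not tested. The replicate number as a block changed no call of a member, with 0.95 for miR-191-5p, 0.61 for miR-425-5p and 0.54 for miR-425-3p, and same-numbered samples did not deviate together (correlations of -0.033, -0.090 and 0.018), so the numbers were not taken as a pairing.

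With each sample left out in turn, the log2 fold change ranged from 0.89 to 1.25 for miR-191-5p, from 0.51 to 0.81 for miR-425-5p, from 0.49 to 0.77 for miR-425-3p and from -0.23 to -0.0034 for miR-191-3p. From 2 to 3 members were called. The arm ratio of miR-191 ranged from 1.06 to 1.23. Where a group was left with 2 samples, the spread was shared across the fit. With 3 samples a group the permutation tests could not go below 0.1, and no sample-level ratio or share could pass the threshold.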
